A study of Homo sapiens with 9 samples.

Results

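The probe sets at the ends of genes were examined on exon arrays of Flip-In-293 cells. For each gene with at least 10 probe sets mapped to it alone, the probe set with the lowest number and the probe set with the highest number were taken. This gave 28134 end probe sets in 14067 genes, out of 19426 genes with such probe sets and 1384231 probe sets on the array, and the 296892 probe sets between them served as the inner set. The rule uses probe set numbers and no measured value. The number of probe sets per gene had a median of 20.

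All groups are Flip-In-293, a line made from the embryonic kidney cells HEK293 that carries a site for targeted integration. Cells were infected with lentivirus and kept for 10 days before RNA was isolated. The 9 arrays form 3 groups of 3: cells given a short hairpin RNA against CPSF3 (shCPSF3), cells given a hairpin against RBFOX2 (shRBFOX2), and cells given a non-silencing hairpin (shNS, the control). The sample titles call the replicates biological and the series description calls them technical, so the p-values measure only how far these arrays scatter, possibly for technical reasons. The series asks how factors that form the 3' end of mRNA affect the use of exons inside genes. Each value is a log2 probe set signal, and relative signal is the signal of a probe set minus the median signal of its gene on the same array.

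A messenger RNA begins at the cap, where RNA polymerase II starts, and ends where the transcript is cut and given a poly(A) tail. CPSF3 is the nuclease subunit that makes this cut. RBFOX2 binds RNA next to alternative exons and helps or hinders their inclusion. Many genes have several start sites and several poly(A) sites, so first and last exons vary between transcripts more than inner exons do. First exons of human genes are often rich in G and C because they lie in CpG islands.

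Which number lies at which end was worked out from RefSeq (GRCh38.p14). Within each chromosome and strand, gene order by probe set number followed RefSeq position, with a median rank correlation of 1.0 on the + strand (22 chromosomes, minimum 0.872) and on the - strand (22 chromosomes, minimum 0.945). These correlations describe gene order, and the points of a chromosome share it. The lowest number was therefore taken as the 5' end on the + strand and as the 3' end on the - strand. A strand was found for 11299 genes and not for 2768. On the - strand the order inside a gene is inferred from the order between genes. In 1694 genes (12.04%) probe sets of other genes carry numbers in between, so their outermost numbers are less sure.

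The sequence around a gene start differs among the genes whose 5' probe set shifted, and 4 starts are shown as the extremes of their G and C content. They are the lowest and the highest shares among 12 genes. These were picked for the smallest p of their 5' probe set between shCPSF3 and shNS arrays without overlap, and most are described below. The lines are RefSeq sequences of GRCh38.p14 around the annotated gene start, printed 5' to 3' on the strand of the gene. The 250 bases before the start are in lower case and the first 50 bases of the gene are in capitals, since the share of G and C in these 50 bases is the property used below. Whether the array's 5' probe set lies in the window was not tested.
SEC31A: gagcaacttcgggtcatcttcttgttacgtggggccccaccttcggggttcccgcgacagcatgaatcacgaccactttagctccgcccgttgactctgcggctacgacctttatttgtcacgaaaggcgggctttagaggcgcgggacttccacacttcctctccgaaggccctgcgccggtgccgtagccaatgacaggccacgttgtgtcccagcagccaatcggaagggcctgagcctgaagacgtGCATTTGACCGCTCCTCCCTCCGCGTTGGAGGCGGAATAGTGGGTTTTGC
TSC22D3: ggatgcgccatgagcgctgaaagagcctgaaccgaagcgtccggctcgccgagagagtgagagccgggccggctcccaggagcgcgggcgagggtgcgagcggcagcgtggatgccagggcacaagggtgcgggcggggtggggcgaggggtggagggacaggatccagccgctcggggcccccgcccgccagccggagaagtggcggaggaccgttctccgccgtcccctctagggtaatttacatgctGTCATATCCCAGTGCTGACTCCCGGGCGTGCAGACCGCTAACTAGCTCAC
RAB22A: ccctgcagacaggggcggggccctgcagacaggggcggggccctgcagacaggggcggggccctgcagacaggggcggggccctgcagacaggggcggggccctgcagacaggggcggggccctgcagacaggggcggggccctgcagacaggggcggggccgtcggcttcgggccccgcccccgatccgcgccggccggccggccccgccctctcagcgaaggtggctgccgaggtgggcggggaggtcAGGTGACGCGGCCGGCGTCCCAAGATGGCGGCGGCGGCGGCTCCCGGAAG
TSPAN2: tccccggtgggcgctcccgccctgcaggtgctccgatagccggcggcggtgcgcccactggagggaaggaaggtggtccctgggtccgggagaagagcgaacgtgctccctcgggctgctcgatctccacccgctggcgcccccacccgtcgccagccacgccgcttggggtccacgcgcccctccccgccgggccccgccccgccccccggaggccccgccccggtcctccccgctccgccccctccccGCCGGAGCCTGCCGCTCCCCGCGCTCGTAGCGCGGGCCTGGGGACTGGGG
The first 50 bases of SEC31A, at chr4:82900520-82900819 (- strand), are 60% G and C. Those of TSC22D3, at chrX:107775939-107776238 (- strand), are also 60%. RAB22A, at chr20:58309465-58309764 (+ strand), has 78%, and TSPAN2, at chr1:115089454-115089753 (- strand), has 82%. On the control arrays the 5' probe sets of the 2 genes with the highest shares stood far above their gene median, at a mean relative signal of 3.11 for RAB22A and 4.51 for TSPAN2. Those of SEC31A and TSC22D3 were at 1.12 and -2.79.

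The targets of the hairpins were checked first. The gene level of CPSF3 had a mean of 9.28 ± 0.25 on the arrays labelled CPSF3 knockdown, 9.65 ± 0.18 in the RBFOX2 knockdown arrays and 9.42 ± 0.30 on control arrays (SD, n = 3 each). The arrays labelled CPSF3 knockdown overlap the control arrays, so every direction below is drawn for arrays with this label. The gene level of RBFOX2 was 8.98 ± 0.17 on the arrays labelled CPSF3 knockdown, 8.61 ± 0.03 in the RBFOX2 knockdown arrays and 9.19 ± 0.07 on the control arrays. All 3 RBFOX2 knockdown arrays lie below all control arrays for RBFOX2. The 5' probe set of CPSF3 differed by 0.11 ± 0.15 in relative signal between the arrays labelled CPSF3 knockdown and control (SE; adjusted p = 0.822, limma). Its 3' probe set had a mean signal of 4.03 and was below the filter. The 8 HEK293-type markers in the gene set were above the filter on all 9 arrays, against 3 of 6 fibroblast, 2 of 5 endothelial and 0 of 2 blood markers. The mean level of the HEK293-type markers was 9.7 to 9.83 on the arrays labelled CPSF3 knockdown, 9.92 to 9.98 in the RBFOX2 knockdown arrays and 10.16 to 10.35 on the control arrays. The part of this difference in the results below was not tested.

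The 3' end probe sets were dim and the 5' end probe sets were not. Over genes with a level of at least 6.97, the median of all probe sets, the median relative signal was 0.08 at the 5' end, -1.13 at the 3' end and 0.02 at inner probe sets. At the 3' end 3116 of 9598 probe sets (32.5%) lay at least 2 log2 units below their gene, against 10.6% at the 5' end and 10.3% of inner probe sets. The 5' ends varied on both sides of the gene level, with the central 90% between -2.89 and 2.54. Numbering alone did not set this: on the + strand the high number was the dim end (-1.14, low number 0.08), and on the - strand it was the low number (-1.12, high number 0.07).

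The levels changed step by step from the ends inward. Counted from the 5' end, the first 5 probe sets had median relative signals of 0.08, 0.32, 0.2, 0.17 and 0.14. Counted from the 3' end, they had -1.13, -0.37, -0.18, -0.11 and -0.04. The 5' probe set itself was thus dimmer than the next one, while the 3' probe set was by far the dimmest of its side. Within a gene, the 3' end was lower than the 5' end in 72.6% of 9598 genes, with a median difference of -1.36. The minimum of 10 probe sets per gene did not mark a step: genes with exactly 10 had 0.06 at the 5' end and -1 at the 3' end, and genes with 9, which the rule leaves out, had 0.06 and -0.92.

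**Figure D1:**
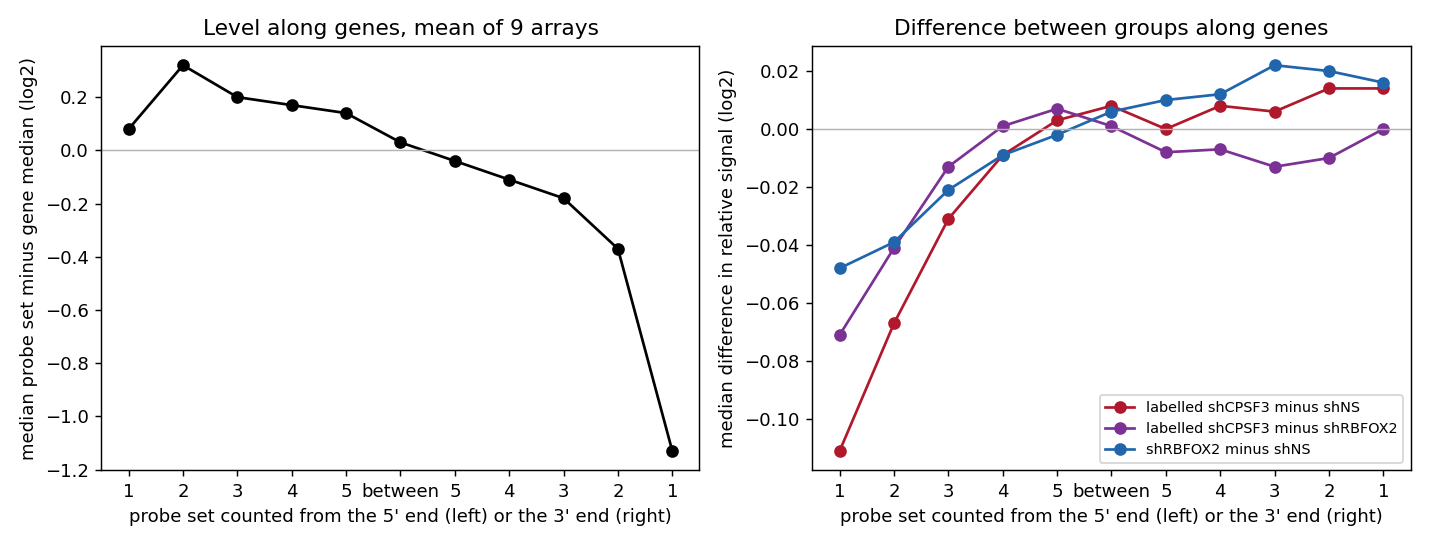
Left: median relative signal (log2, probe set minus gene median, mean of 9 arrays) by place along the gene, counted from each end, for genes above the filter. Right: median difference in relative signal (log2) between groups at the same places; the arrays labelled CPSF3 knockdown differ from control by -0.111 at the 5' probe set and by 0.008 between the first and last 5.

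The 5' probe sets followed the level of their gene only weakly. The middle of a gene is taken here as the median of the probe sets from the 4th onward from both ends. In 1903 genes with a middle between 6.97 and 8 (median 7.61), the 5' probe set had a median signal of 8.37. In 387 genes with a middle of 11 or more (median 11.54), it was 9.45. The 5' probe set thus spans a much smaller range than the middle. The 3' probe set had 6.78 in the first of these classes and 9.12 in the last, and the second from the 5' end had 8.44 and 10.69. These are levels of different probe sets and carry the probes' own affinities, so they describe the array signal and no molar amount. Signal at the 5' end was higher where the first 50 bases held more G and C: the median relative signal was -0.2 in genes with 22 to 60% and 0.55 in genes with 76 to 94%, the lowest and highest of 4 classes.

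**Figure D2:**
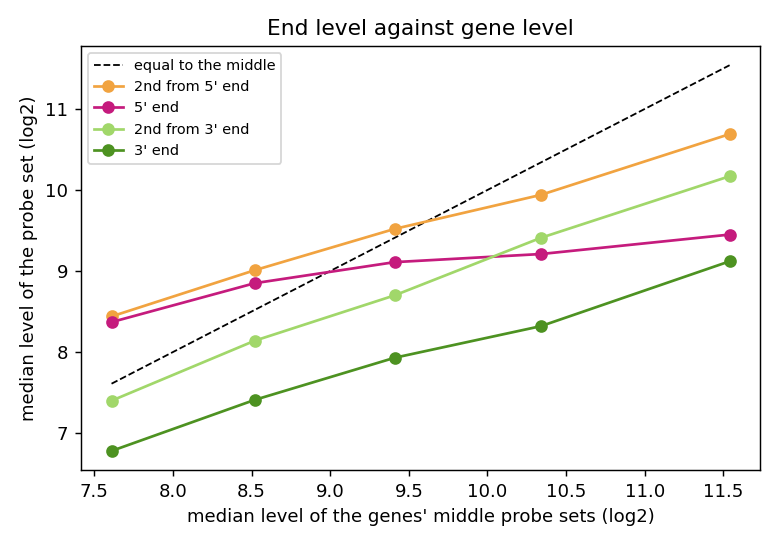
Median signal (log2, mean of 9 arrays) of end probe sets, vertical axis, against the median signal of the middle of the same genes, horizontal axis, in 5 classes of gene level. The line of the 5' probe set is the flattest, from 8.37 to 9.45, while the middle runs from 7.61 to 11.54.

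The first comparison asked how the ends differ between the arrays labelled CPSF3 knockdown and control. The 5' ends were shifted down relative to their genes, while the 3' array medians of the groups overlap. The array medians of the 5' probe sets above the filter were 0.106, 0.259 and 0.225 on the arrays labelled CPSF3 knockdown, 0.344, 0.267 and 0.198 in the RBFOX2 knockdown arrays, and 0.278, 0.409 and 0.265 on the control arrays. The first group lies below all control arrays, by a narrow margin, and the RBFOX2 knockdown arrays overlap them. The array medians of the 3' probe sets were -0.341, -0.344 and -0.335 on the arrays labelled CPSF3 knockdown and -0.413, -0.358 and -0.322 on the control arrays, and these overlap. Inner probe sets stayed between 0.203 and 0.215 on all arrays.

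**Figure D3:**
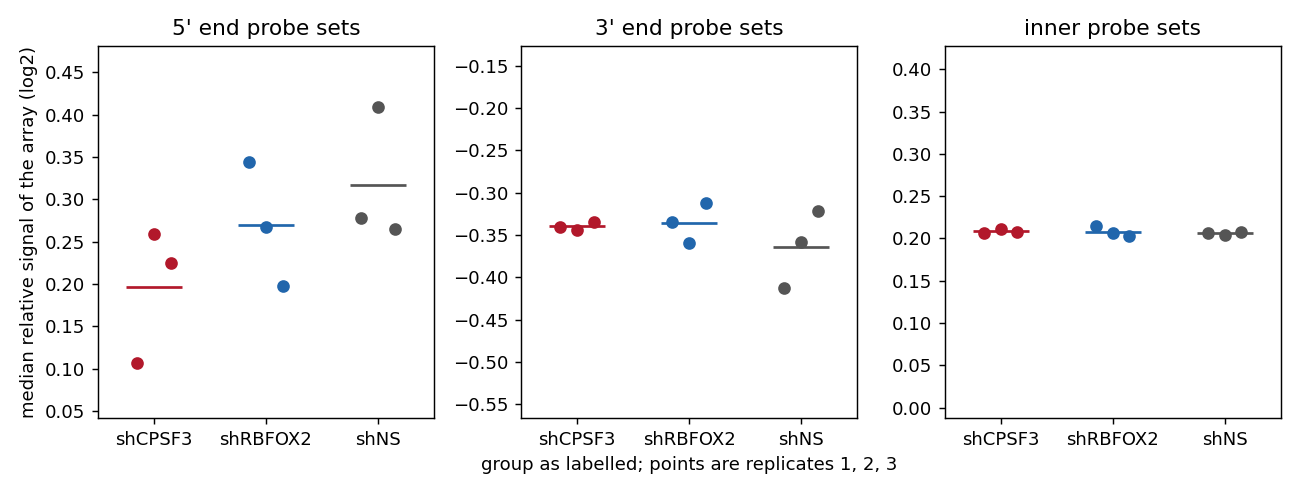
Median relative signal (log2) of tested 5', 3' and inner probe sets on each array; points are replicates, horizontal lines are group means, and the 3 panels have vertical axes of equal length. At the 5' end the arrays labelled CPSF3 knockdown reach at most 0.259, below the lowest control array at 0.265.

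Of the 28134 ends, 17732 passed the filter on signal and gene level and were tested with limma together with 216252 inner probe sets. An adjusted p under 0.05 was reached by 44 ends, 12 higher and 32 lower, which is 0.248% of those tested, against a background of 0.173% over all 233984 probe sets (0.059% higher, 0.114% lower). In 4 of the 12 higher ends and in 0 of the 32 lower ones, 1 of the groups compared had a mean signal below the filter, so these 4 passed it through the other arrays. This check covers the end's own signal and not the gene level. By place, 28 were 5' ends (6 higher, 22 lower), 12 were 3' ends (4 higher, 8 lower) and 4 had no strand. The count depended on single arrays: 0 ends were called without shNS replicate 1, without shNS replicate 2 or without any of the 3 shCPSF3 arrays, 524 without shNS replicate 3, and 17 without shRBFOX2 replicate 2. A broader measure is the lack of overlap, with all 3 arrays of a group beyond all 3 of the other. By it, 20.1% of 8457 tested 5' ends were lower and 5.58% were higher, against a background of 10.2% lower and 8.89% higher over all probe sets. For the 5900 tested 3' ends these shares were 8.9% and 10.3%. The 5' share of lower probe sets lies well above the background, and the 3' shares lie near it.

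The downward shift was graded along the gene. The median difference was -0.111 at the 5' probe set, -0.067 at the next, -0.031 at the third, -0.009 at the fourth and 0.003 at the fifth. The share lower without overlap fell off in the same order, with 20.1, 16.6, 13.5, 10.3 and 9.85%. At the 3' probe set the median difference was 0.014, and it was 0.002 over inner probe sets. The 5' shift was -0.137 to -0.073 over all settings tried, leaving out single arrays included. By G and C share of the first 50 bases, from the lowest to the highest of 4 classes of genes, it was -0.071, -0.134, -0.124 and -0.107. It lay between -0.078 and -0.146 in 5 classes of signal level, while inner probe sets lay between -0.011 and 0.018 there.

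The 5' signal moved little where the rest of the gene differed. Genes were sorted by the difference of their middle between the arrays labelled CPSF3 knockdown and control, and the signal of the ends, which is no part of that middle, was read. Where the middle was higher by 0.5 to 1 (median 0.66, 998 genes), the 5' probe set differed by a median of 0.04, with an interquartile range from -0.1 to 0.24. In 672 genes of this class the 3' probe set differed by 0.53. Where the middle was higher by 1 or more (median 1.14, 130 genes), the 5' probe set differed by 0.12, the second by 0.46, the third by 0.69, and the 3' probe set by 0.9 in 86 genes.

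In the other direction the 5' probe set also differed by less than the middle, but the gap to the 3' probe set depended on the class. Where the middle was lower by 0.5 to 1 (median -0.62, 251 genes), the 5' probe set differed by -0.18 and the 3' probe set by -0.37. Where it was lower by 1 or more (median -1.19, 35 genes), the 5' probe set differed by -0.26, and the 3' probe set by -1.07 in 24 genes. Where it was lower by less than 0.5 (median -0.14), the ends differed alike, by -0.1 at the 5' end (3205 genes) and -0.09 at the 3' end (2213 genes). Where it was higher by less than 0.5, they differed by -0.03 (3838 genes) and 0.17 (2742 genes). Over all tested probe sets the median signal difference was -0.057 at 5' ends and 0.058 at inner probe sets with a strand. Among 1414 genes whose middle differed by at least 0.5 in either direction, the 5' probe set differed by less than the middle in 94.1% and in the opposite direction in 35.7%. For the 3' probe set these shares were 67.2% and 8.57% of 945 genes. Sorting by a measured difference picks its extremes, so values of other probe sets may lie nearer 0, and how far this applies to each end was not tested. The median replicate SD of signal was 0.19 at tested 5' ends and 0.238 at tested 3' ends, and 88.1% and 61.5% of these ends passed the filter. With no filter on the end itself, an alternative added after the data were seen, the 5' and 3' probe sets differed by 0.05 and 0.47 in 1112 genes whose middle was higher by 0.5 to 1, and by -0.26 and -0.75 in 37 genes whose middle was lower by 1 or more. They differed by -0.18 and -0.3 in 280 genes whose middle was lower by 0.5 to 1. In 3667 genes whose middle was lower by less than 0.5, they differed by -0.1 and -0.07.

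Several splits of the genes whose middle was higher by at least 0.5 left the gap between the ends in place. The 5' probe set differed by 0.13, 0.05, 0.03 and -0.03 from the lowest to the highest of 4 classes of G and C, where the 3' probe set of the same classes differed by 0.58, 0.51, 0.6 and 0.54. Over 5 classes of the 5' probe set's own signal level it differed by 0.02 to 0.07, and the 3' probe set by 0.5 to 0.58 in its own classes. On the + strand the 5' and 3' differences were 0.04 and 0.54, and on the - strand 0.05 and 0.57. With any array of the comparison left out, the 5' value stayed between 0.02 and 0.08 and the 3' value between 0.5 and 0.63. The 5' value was 0.04 without genes whose numbers are interleaved.

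**Figure D4:**
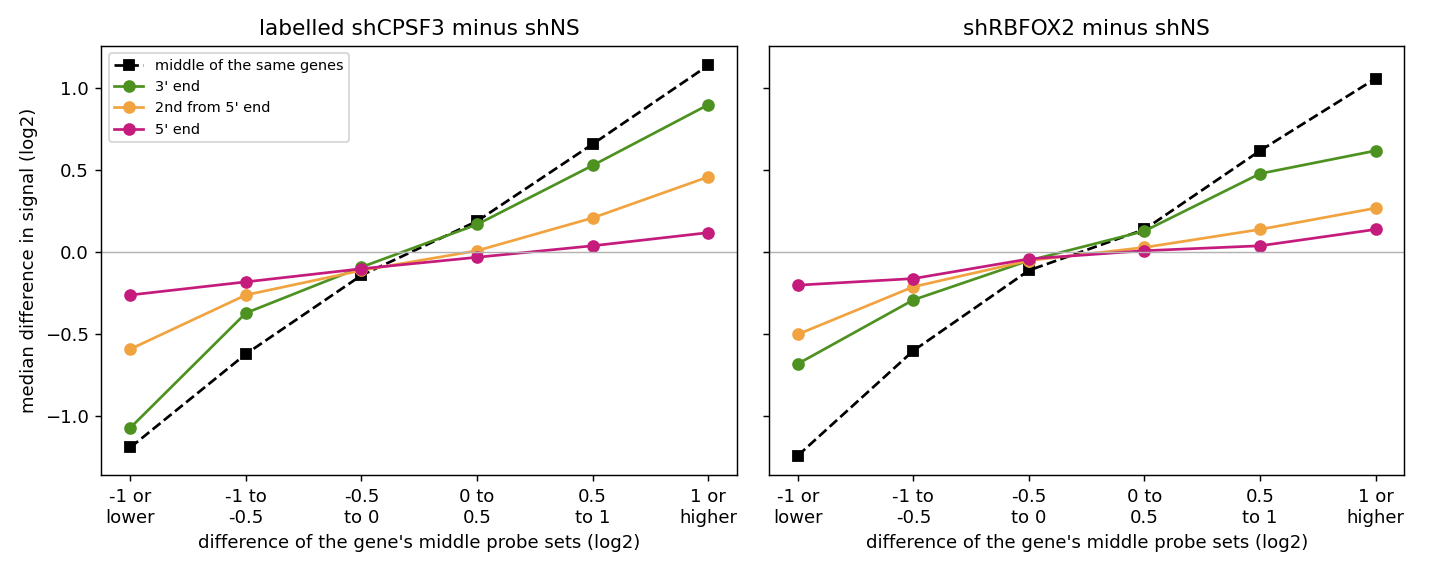
Median difference in signal (log2) of the 5' probe set, the second from the 5' end and the 3' probe set, vertical axis, in genes sorted by the difference of their middle, horizontal axis; squares show the middle itself for the genes with a tested 5' probe set. In the left panel (labelled CPSF3 knockdown against control) the 5' line runs only from -0.26 to 0.12 while the middle runs from -1.19 to 1.14, and in the right panel (RBFOX2 knockdown against control) it runs from -0.2 to 0.14.

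The 28 called 5' ends can be split into their parts, since relative signal is the end's own signal minus the gene level. In 26 of them the gene level differed in the direction opposite to the shift, and in 20 the end's own signal differed by less than the gene level. The ends were called by the difference of these parts, so an opposite gene level is partly built in. The median size of the difference was 0.29 for the end's own signal and 0.83 for the gene level, and 7 were called by their own signal. At the 12 called 3' ends the order was turned round: the median size was 1.11 for the end's own signal and 0.29 for the gene level, and 11 were called by their own signal. The gene level differed opposite to the shift in 6 of these 12. Of the 4 higher among these 3' ends, 3 had a control mean below the filter.

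EP300 encodes a histone acetyltransferase that acts as a transcriptional coactivator. Its 5' probe set (3946616) had a relative signal of -1.12, -1.06 and -1.11 on the arrays labelled CPSF3 knockdown, -0.8, -0.57 and -0.63 in the RBFOX2 knockdown arrays, and -0.18, 0.1 and -0.24 on the control arrays. The 3 groups do not overlap, and the RBFOX2 knockdown arrays lie between. EP300 and the ends after it, up to TUG1, were picked among ends without overlap between arrays labelled CPSF3 knockdown and control. That gap is therefore built in. The difference between the arrays labelled CPSF3 knockdown and control was -0.99 ± 0.13 (SE; adjusted p = 0.0396, limma). The signal of the probe set differed by only -0.16 ± 0.16 (adjusted p = 0.606, limma), and the gene level by 0.83.

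MRM2, which encodes a methyltransferase of mitochondrial ribosomal RNA, had 5' relative signals of 0.87, 0.75 and 0.85 on the arrays labelled CPSF3 knockdown, 1.45, 1.51 and 1.23 in the RBFOX2 knockdown arrays, and 2.35, 1.98 and 1.68 on the control arrays. The groups again fall apart in this order, with a difference of -1.19 ± 0.17 (adjusted p = 0.0412, limma), an own signal of -0.41 and a gene level of 0.78. DNAJA1, a co-chaperone of HSP70, had 5' relative signals of 0, 0.01 and 0.05 on the arrays labelled CPSF3 knockdown, 1.13, 0.89 and 0.69 in the RBFOX2 knockdown arrays, and 1.2, 1.17 and 0.93 on the control arrays. Here the RBFOX2 knockdown arrays overlap control, and the shift was -1.08 ± 0.14 (adjusted p = 0.0396, limma) with a gene level difference of 0.69. The numbers of DNAJA1 are interleaved with those of another gene.

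In the mirror case the gene level was lower by much more than the 5' signal. TSC22D3 encodes a leucine zipper protein induced by glucocorticoids. Its 5' probe set (4017460) had relative signals of -1.78, -1.41 and -1.74 on the arrays labelled CPSF3 knockdown, -2.33, -2.37 and -2.3 in the RBFOX2 knockdown arrays, and -2.9, -2.7 and -2.76 on the control arrays. The 3 groups do not overlap. The shift was 1.14 ± 0.14 (adjusted p = 0.0303, limma), the end's own signal differed by -0.11 ± 0.17 and the gene level by -1.25. TSPAN2, a tetraspanin, had 5' relative signals of 5.58, 5.63 and 6.03 on the arrays labelled CPSF3 knockdown, 4.72, 4.69 and 4.79 in the RBFOX2 knockdown arrays, and 4.34, 4.78 and 4.42 on the control arrays. Only the first group stands clear of control, with a shift of 1.23 ± 0.16 (adjusted p = 0.0392, limma), an own signal of -0.08 and a gene level of -1.31. On the arrays labelled CPSF3 knockdown, the end's mean signal of 12.22 and mean relative signal of 5.75 place the gene level below the filter of 6.97. TSPAN2 passed this filter on gene level through the other arrays, so the size of its shift is not firm.

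Other 5' ends moved in their own signal. SEC31A encodes a coat protein of the vesicles that leave the endoplasmic reticulum. Its 5' probe set (2775848) had relative signals of -0.43, -0.06 and -0.37 on the arrays labelled CPSF3 knockdown, 0.43, 0.57 and -0.15 in the RBFOX2 knockdown arrays, and 1.22, 1.29 and 0.84 on the control arrays. The arrays labelled CPSF3 knockdown lie well below control, and the difference was -1.4 ± 0.20 (adjusted p = 0.0429, limma), with an own signal of -1.47 ± 0.22 and a gene level of -0.07. The next 2 probe sets of SEC31A differed by -1.41 and -1.48 in relative signal, so the difference covers the first 3 probe sets.

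DUSP11, an RNA phosphatase, had 5' relative signals of -0.35, -0.36 and -0.73 on the arrays labelled CPSF3 knockdown, 0.62, 0.51 and -0.34 in the RBFOX2 knockdown arrays, and 1.25, 0.99 and 1.11 on the control arrays. Its shift was -1.6 ± 0.23 (adjusted p = 0.0412, limma), with an own signal of -1.07 and a second probe set at -0.13, so it is confined to the outermost probe set of the first 3. PI4KA, a phosphatidylinositol kinase with interleaved numbers, had a shift of -0.99 ± 0.14 (adjusted p = 0.0429, limma), and its second probe set differed by 0.13. RAB22A, a small GTPase of endosomes, had a shift of -1.19 ± 0.16 (adjusted p = 0.0396, limma), with an own signal of -0.75 and a gene level of 0.44. MAN2B1, a lysosomal mannosidase, differed at its 5' end by 1.27 ± 0.15 (adjusted p = 0.0303, limma) with an own signal of 1.02. Its control signals of 6.58, 6.3 and 6.57 all lie below the filter of 6.97, which it passed through the knockdown arrays with a mean of 7.07, so the size of its difference is not firm. Over all 44 called ends, the relative signal of the second probe set moved the same way in 39. Its median size of difference was 0.62, against 1.15 at the ends. Both relative signals subtract the same gene level, so a shared direction is partly built in.

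Called 3' ends went in both directions. TAF9B encodes a subunit of the general transcription factor TFIID. Its 3' probe set (3982388) had relative signals of -3, -2.94 and -3.27 on the arrays labelled CPSF3 knockdown, -2.7, -1.89 and -2.48 in the RBFOX2 knockdown arrays, and -1.25, -1.12 and -1.32 on the control arrays. Both knockdown groups lie below control without overlap. The difference from control was -1.84 ± 0.20 on the arrays labelled CPSF3 knockdown (adjusted p = 0.0293, limma). The own signal was -0.98 and the gene level 0.86, and the second probe set differed by -1.36. The numbers of TAF9B are interleaved with those of another gene.

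SEMA5B, a semaphorin of axon guidance, had 3' relative signals of -1.27, -0.79 and -0.71 on the arrays labelled CPSF3 knockdown, 0.03, 0.44 and 0.54 in the RBFOX2 knockdown arrays, and 0.79, 0.42 and 0.91 on the control arrays. Only the first group is apart from control, by -1.63 ± 0.20 (adjusted p = 0.0329, limma), and the own signal differed by -2.03 ± 0.23. SLC35G1 had a 3' shift of -1.09 ± 0.14 (adjusted p = 0.0392, limma) with an own signal of -0.95.

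DOK3, an adaptor protein of immune receptor signalling, had 3' relative signals of 0.85, 0.29 and 0.34 on the arrays labelled CPSF3 knockdown, -0.71, -0.96 and -0.22 in the RBFOX2 knockdown arrays, and -1.11, -1.41 and -1.64 on the control arrays. The groups do not overlap, and the difference was 1.88 ± 0.22 (adjusted p = 0.0303, limma), with an own signal of 2.03. The numbers of DOK3 are interleaved too. IFNAR1, a chain of the type I interferon receptor, had 3' relative signals of -0.5, -0.61 and -1 on the arrays labelled CPSF3 knockdown, -1.19, -1.43 and -1.31 in the RBFOX2 knockdown arrays, and -2.66, -2.69 and -1.89 on the control arrays. All 3 groups are apart, and the difference was 1.71 ± 0.22 (adjusted p = 0.036, limma). TUG1, a long non-coding RNA, had a 3' shift of 1.31 ± 0.17 (adjusted p = 0.0396, limma) with an own signal of 1.24. The 3' probe sets of DOK3, IFNAR1 and TUG1 had control means of 6.92, 5.69 and 6.45 in signal, below the filter of 6.97, which they passed through the knockdown arrays. The sizes of these 3 differences are therefore not firm.

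**Figure D5:**
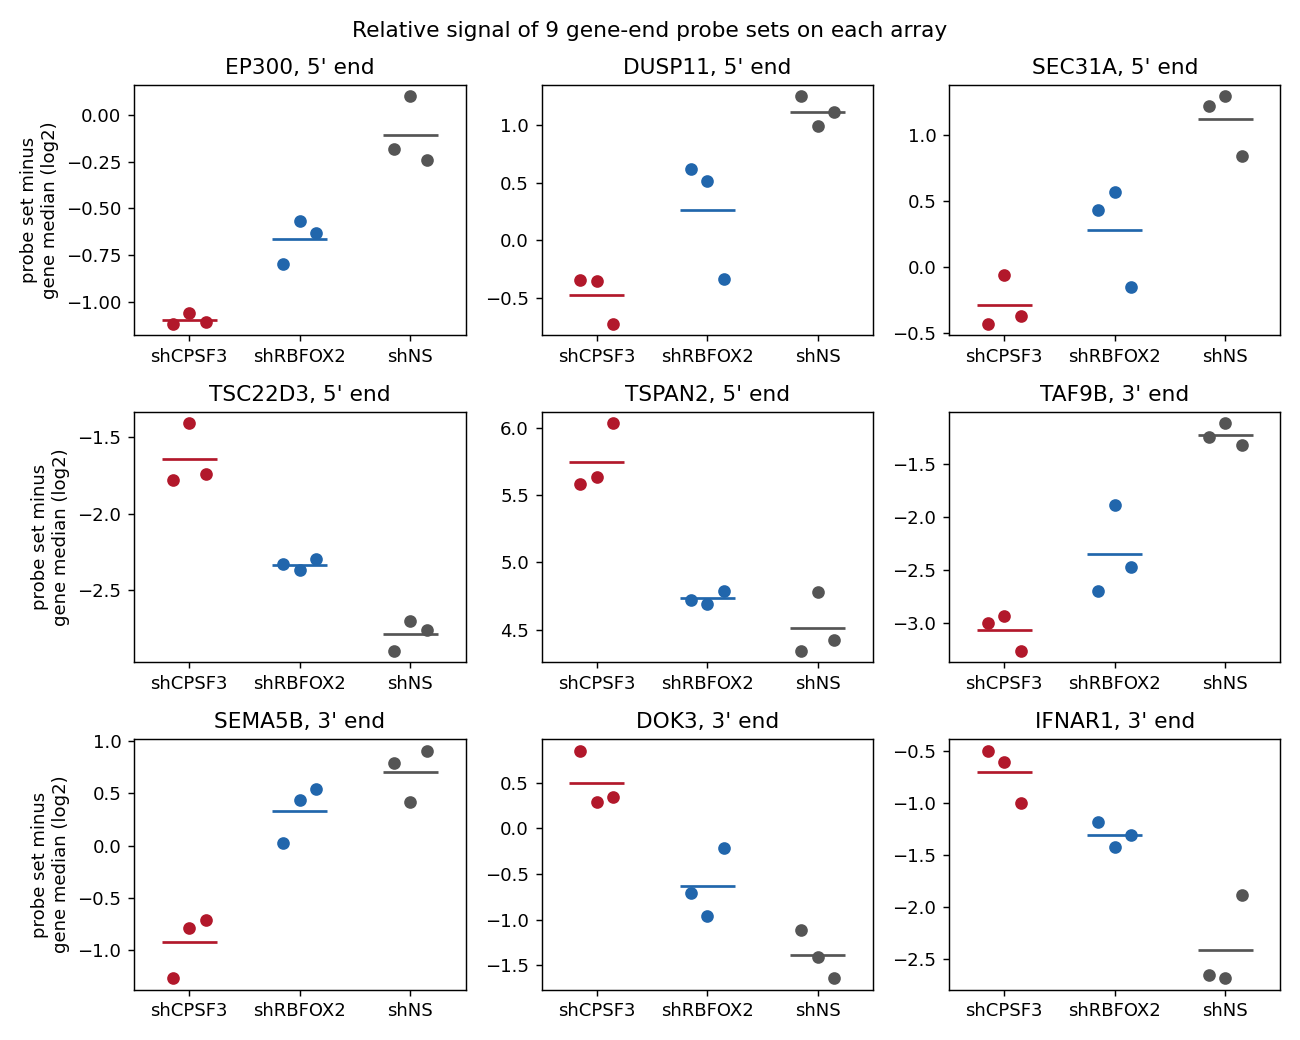
Relative signal (log2, probe set minus gene median) of 5 called 5' ends and 4 called 3' ends on each of the 9 arrays; points are replicates, horizontal lines are group means, and each panel has its own vertical scale. The ends were picked among those where the arrays labelled CPSF3 knockdown do not overlap control, so the gap in every panel follows from the choice. For EP300 these arrays sit between -1.12 and -1.06 against -0.24 to 0.1. The control means of DOK3 and IFNAR1 lie below the filter on signal. The gene level of TSPAN2 lies below it on the arrays labelled CPSF3 knockdown.

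Tested on their own signal, the ends divided by place as well. Over all tested probe sets 7.79% were called (5.6% higher, 2.18% lower) between the arrays labelled CPSF3 knockdown and control. At the 3' ends 520 of 5900 were called (360 higher, 160 lower, 8.81%), near that background, and at the 5' ends 150 of 8457 (81 higher, 69 lower, 1.77%). A group mean lay below the filter in 56 of the 360 and 10 of the 160 at the 3' end, and in 5 of the 81 and 1 of the 69 at the 5' end. In all, 822 ends were called, 67 without shNS replicate 1, 189 without shNS replicate 2, 73, 210 and 235 without shCPSF3 replicates 1, 2 and 3, and 1616 without shNS replicate 3. The lowest adjusted p among ends was that of SCML1, a polycomb-related gene, whose 3' signal was 8.93, 9.11 and 9.19 on the arrays labelled CPSF3 knockdown and 11.04, 11.27 and 10.89 on the control arrays. It fell by 1.99 ± 0.16 (adjusted p = 0.00164, limma), together with its gene level, which differed by -1.19. The 5' signal of NRN1, a membrane-anchored protein of neurons, fell by 1.73 ± 0.16 (adjusted p = 0.00204, limma). This probe set is itself the gene's median on most arrays, so its difference of -0.08 in relative signal is near 0 by construction, and with the gene level from inner probe sets the relative difference of NRN1 was -1.743.

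The difference between the ends within a gene, 3' minus 5', combines these results. Both ends passed the filter in 5244 genes with a strand, and the 3' end was lower in 66% of them (median -0.64). The array medians were -0.462, -0.602 and -0.57 on the arrays labelled CPSF3 knockdown, -0.718, -0.635 and -0.502 in the RBFOX2 knockdown arrays, and -0.736, -0.799 and -0.609 on the control arrays. All arrays labelled CPSF3 knockdown lie above all control arrays, with -0.602 next to -0.609. Of 6449 genes tested, 180 were called (2.79%). No such difference was computed between inner probe sets, so these counts have no background. Of the 5244 with a strand, 112 were called higher and 34 lower, and without overlap 17.6% were higher and 6.03% lower. An end had a group mean below the filter in 20 of the 112 and in 7 of the 34. Among the 112, the 5' signal was lower in 94, the 3' signal higher in 110 and both in 92. The calls dropped to 0 without shNS replicate 1, shNS replicate 2 or shCPSF3 replicate 1, to 8 and 3 without shCPSF3 replicates 2 and 3, and to 40 without shRBFOX2 replicate 2, and there were 491 without shNS replicate 3.

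In IFNAR1, CYP20A1 and DOK3, which share the smallest adjusted p among genes with a strand, the 3' signal differed far more than the 5' signal. IFNAR1 had a 3' signal of 8.76, 8.44 and 8.16 on the arrays labelled CPSF3 knockdown, 7.24, 7.5 and 7.77 in the RBFOX2 knockdown arrays, and 5.22, 5.09 and 6.76 on the control arrays. Its 5' signal was 10.22, 9.98 and 9.95 on the arrays labelled CPSF3 knockdown, 10.19, 10.02 and 9.7 in the RBFOX2 knockdown arrays, and 10.07, 9.62 and 9.95 on the control arrays. The 3' values separate all 3 groups and the 5' values overlap, but all 3 control values of the 3' probe set lie below the filter. The end-to-end difference was 2.6 ± 0.37 (adjusted p = 0.0138, limma).

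CYP20A1, a cytochrome P450 family member, had a 3' signal of 9.4, 8.9 and 8.74 on the arrays labelled CPSF3 knockdown and 6.77, 6.46 and 7.72 on the control arrays. The control values of 6.77 and 6.46 lie below the filter of 6.97, and the control mean of 6.98 lies just above it. The size of the difference in CYP20A1 is therefore not firm. Its 5' signal was 7.92, 8.24 and 8.17 on the arrays labelled CPSF3 knockdown and 8.42, 8.26 and 8.39 on the control arrays. The 5' groups are apart too, by the narrow margin between 8.24 and 8.26, and the difference end to end was 2.28 ± 0.33 (adjusted p = 0.0138, limma). In DOK3, whose 3' control mean is below the filter, the 3' signal differed by 2.03 and the 5' signal by 0, with 2.03 ± 0.28 end to end (adjusted p = 0.0138, limma). In CYP20A1 and IFNAR1 the third control array is nearest to the other groups. The opposite case was POLR3C, a subunit of RNA polymerase III, with -1.56 ± 0.24 (adjusted p = 0.0188, limma): its 5' signal differed by 1.44 and its 3' signal by -0.12.

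Gene lists were read for their 5' ends on the arrays labelled CPSF3 knockdown against control, where all tested 5' ends had a median of -0.111 and 20.1% lower without overlap. Of the mRNA 3' end processing factors, 22 were tested and 10 were lower without overlap, with a median of -0.34 and 0 called. The smallest p in this list was that of CDK13, a kinase of the elongating polymerase, at -1.5 ± 0.25 (adjusted p = 0.0508, limma), and RBBP6, a subunit of the 3' processing machinery, had a 3' difference of 1.02 ± 0.18 (adjusted p = 0.0546, limma). Of 34 genes with known alternative polyadenylation, 13 were lower (median -0.259, 0 called), and of their 25 tested 3' ends TAF9B was called. Of 33 genes with known RBFOX exons, 11 were lower (median -0.194, 0 called).

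Of 27 genes with alternative first exons, 9 were lower (median -0.094). KLF6, a zinc finger transcription factor, was called there at -0.76 ± 0.12 (adjusted p = 0.0464, limma), with an own signal of -1.35. Of 49 splicing regulators, 12 were lower (median -0.09), and CELF1, a splicing regulator that binds GU-rich RNA, was called at -0.85 ± 0.13 (adjusted p = 0.0464, limma). None of 18 replication-dependent histone genes has 10 such probe sets, so none was read. The 3' end medians of these lists lay between -0.025 and 0.085.

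On the RBFOX2 knockdown arrays against control no end was called in relative signal, where the background was 0%. An unadjusted p under 0.05 was reached by 1707 ends (9.63%), against 8.04% of all probe sets (limma). By signal 0 ends were called too, with a background of 0.000427%. Here 1478 ends (8.34%) had an unadjusted p under 0.05, a smaller share than the 11.4% of all probe sets (limma). Without shNS replicate 3, 106 ends were called in relative signal and 566 by signal. The 5' ends had a median difference of -0.048, and 6.96% were lower without overlap against a background of 5.68%. With single arrays left out this median ran from -0.087 without shRBFOX2 replicate 1 to -0.005 without shNS replicate 2. The comparison shares its control arrays with the one above. Sorted by the middle of the gene, the 5' signal was again nearly level: it differed by 0.04 in 334 genes whose middle was higher by 0.5 to 1, and by -0.16 in 133 genes whose middle was lower by 0.5 to 1. The 3' signal differed by 0.48 and -0.29 in these classes.

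The 20 ends with the smallest p per direction and end had adjusted p between 0.328 and 0.335 (limma), so none passed the test. HSPA5, the chaperone BiP of the endoplasmic reticulum, whose numbers are interleaved with those of another gene, had 5' relative signals of -3.72, -3.63 and -3.69 in the RBFOX2 knockdown arrays and -4.53, -4.44 and -4.53 on the control arrays, apart by 0.82 ± 0.14. GNPTAB, an enzyme that tags lysosomal proteins, had 5' relative signals of 0.5, 0.19 and -0.15 in the RBFOX2 knockdown arrays and 1.24, 1.33 and 0.9 on the control arrays, with an own signal of -0.14 and a gene level of 0.84. The lowest-numbered probe set of CCND2, which encodes cyclin D2, differed by 0.84 ± 0.14 in relative signal, with an own signal of 0.01 and a gene level of -0.83. In GNPTAB and CCND2 the gene level differed by more than the end's own signal. The ends of RBFOX2 itself, which has no strand here, differed by -0.12 ± 0.13 at the lowest number and by 0.45 ± 0.20 at the highest (adjusted p = 0.883 and 0.623, limma). In the end-to-end difference 0 of 6449 genes were called (631, or 9.78%, at an unadjusted p under 0.05, limma), and 137 were called without shNS replicate 3. Of the 5244 genes with a strand, 8.37% were higher and 3.93% lower without overlap.

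Between the hairpins, the arrays labelled CPSF3 knockdown against the RBFOX2 knockdown arrays, no end was called in relative signal (background 0%). An unadjusted p under 0.05 was reached by 1178 ends (6.64%), against 4.18% of all probe sets (limma). The 5' ends had a median difference of -0.071, and 8.29% were lower without overlap against a background of 4.85%. Leaving out single arrays moved this median between -0.104 (without shRBFOX2 replicate 3) and -0.03 (without shCPSF3 replicate 1). By their own signal 4 of 17732 ends were called (0.0226%), near the background of 0.0261% over all probe sets. All 4 were lower and at the 3' end (0.0678% of 5900), and 48 of the 61 calls over all probe sets were lower too. SEMA5B had a 3' signal of 7.1, 7.67 and 7.82 on the arrays labelled CPSF3 knockdown and 8.95, 9.45 and 9.14 in the RBFOX2 knockdown arrays, a difference of -1.64 ± 0.23 (adjusted p = 0.0455, limma). SCML1 had 8.93, 9.11 and 9.19 on the arrays labelled CPSF3 knockdown and 10.21, 10.62 and 10.55 in the RBFOX2 knockdown arrays, a difference of -1.38 ± 0.16 (adjusted p = 0.0282, limma). Neither gene's groups overlap. LAPTM4A, a lysosomal membrane protein, and EDIL3, a secreted protein of the extracellular matrix, complete the set and were chosen after their values were seen. Their 3' signals differed by -1.4 ± 0.17 and -1.55 ± 0.16 (adjusted p = 0.0282 and 0.0254, limma), with gene levels that differed by -1.03 and -1.27. The count was 0 without shNS replicate 1, shRBFOX2 replicate 2 or any of the 3 shCPSF3 arrays, and 1 end was called without shRBFOX2 replicate 3. In the end-to-end difference 0 of 6449 genes were called (384, or 5.95%, at an unadjusted p under 0.05, limma). Of the 5244 genes with a strand, 8.6% were higher and 4.06% lower without overlap.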

How the data were processed

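RNA of 9 samples was read on Affymetrix Human Exon 1.0 ST arrays after amplification and labelling as single-stranded cDNA, per the labels' protocols. The deposited unit is log2 signal, with 1 value per probe set and array. The submitters' processing notes name RMA, Affymetrix Power Tools and the build hg18; the series text also names Affymetrix's Exon Array Computational Tool. The sources used here give no versions. RMA forces arrays to 1 distribution, so a global change would be hidden, and it compresses changes of dim probe sets. That the scale is log2 follows from the maximum of 14.8 to 15.2 on all arrays. The number of arrays limits the precision.

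The platform annotation gave 1 gene symbol for 354600 probe sets, several for 14898 and none for 1014733. Of 19497 symbols, 16426 were current in RefSeq, 2950 were updated through a synonym and 121 were kept. Strands and sequences come from RefSeq (GRCh38.p14), matched by symbol. Probe sequences were not used here.

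The gene level was the median of all single-gene probe sets on an array. A probe set was tested if its mean over the 9 arrays and its gene level were at or above 6.97. Relative signal, probe set signal and the end-to-end difference (high minus low number, turned to 3' minus 5' by strand) were each fitted over all features with limma's lmFit and eBayes, all 3 groups sharing 1 estimate of spread and no block (R 4.3.3, limma 3.58.1). Tests were 2-sided, with Benjamini-Hochberg adjustment over all features at 0.05. With 3 arrays against 3, an exact permutation test reaches no p below 0.1. The median makes 9 tested ends and 85 inner probe sets exactly 0 on all arrays. The test was also tried on simulated data. Each probe set had its mean over all 9 arrays, its spread within the 3 groups and independent normal noise. Among 233984 probe sets, 200 end probe sets were changed on the shCPSF3 arrays. The test of relative signal between shCPSF3 and shNS recovered 83% of log2 changes of 2, 18% of 1 and 0% of 0.5.

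Named ends are both ends of the targets, the 5 smallest p per end and direction without overlap (2 between hairpins), the 3 and 2 smallest for the end-to-end difference and for signal, and the smallest per gene list and direction; the text describes those with the clearest values. The gene lists, the markers and the members were chosen with earlier results of these data known. The sorting by the middle of the gene was added after the data were seen. Replicate numbers showed no clear pairing of the arrays. Same-numbered deviations correlated at -0.158 to 0.358, with 4 of 9 pairs over 0.1. Differently numbered ones correlated at -0.447 to 0.332, with 7 of 18 pairs over 0.1.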

Additional observations from a re-analysis of the deposited data

Results flagged for a closer look

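Probe set signal at 4 ends differed between the hairpins by the test of that difference, in the arrays labelled CPSF3 knockdown minus the RBFOX2 knockdown arrays. It was -1.64 for SEMA5B, -1.38 for SCML1, -1.4 for LAPTM4A and -1.55 for EDIL3, all at the 3' end. These 4 are 0.0226% of the tested ends, near the 0.0261% called over all probe sets. Their calls were lost without shNS replicate 1, without shRBFOX2 replicate 2 and without any of the 3 shCPSF3 arrays.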

How the results depend on the processing

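Relative-signal calls at ends on the arrays labelled CPSF3 knockdown against control (44) were 0 without a filter on level, 27 with the gene level from inner probe sets, 80 with the mean as gene level, 24 with the 2 groups alone, 86 with a variance trend and robust fitting, and 404 with array weights. Signal calls (822) were 400, 2383 and 462 without a filter, with array weights and with 20 or more probe sets per gene. End-to-end calls (180) were 1 without a filter, 110 with the 2 groups alone, 547 with array weights and 112 with 20 or more probe sets per gene. Leaving out single arrays gave 0 to 524, 67 to 1616 and 0 to 491 for these 3 counts. For RBFOX2 knockdown against control, leaving out single arrays gave 0 to 106 relative, 0 to 566 signal and 0 to 137 end-to-end calls, a trend gave 1 signal call and array weights 159. Between the hairpins, signal calls (4) were 0 without a filter, with the 2 groups alone and with 20 or more probe sets per gene, 7 with a filter at the upper quartile (8.36), 11 with a trend and 75 with array weights, and 0 to 4 with single arrays left out; end-to-end calls were 1 with the upper quartile and 2 with array weights. With the replicate block, these 4 calls became 0, and the numbers showed no clear pairing of the arrays.

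The median over arrays of each array's median relative signal was 0.049 at the 5' end, and it was 0.131 without a filter, -0.067 at the upper quartile, 0.266 with the mean and 0.186 with 2 probe sets per end. At the 3' end (-1.121) it was -1.029, -1.239, -0.996 and -0.718 in these settings, -1.231 with the inner gene level, -1.169 with 20 or more probe sets and -1.156 without interleaved genes, a setting added after the data were seen. For the lowest number it was -0.381, -0.628, -0.353, -0.176 and, with the inner gene level, -0.582; for the highest number -0.373, -0.623, -0.37, -0.2 and -0.6.

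Of the named ends over all settings, 1710 values kept direction and side of the threshold, 153 lost and 60 gained a call, and 15 changed sign, all at ends with no call. With the gene level from inner probe sets, CCND2 (highest number, RBFOX2 knockdown against control) was at 0.029, WBP4 (3' end, the same comparison) at 0.152 and RBFOX2 (lowest number, arrays labelled CPSF3 knockdown against control) at 0.007; with the mean, the highest number of RBFOX2 was at -0.031. With single arrays left out, these ranged from -0.1 to 0.1 for CCND2, -0.192 to 0.102 for WBP4, -0.057 to 0.069 for the lowest and -0.113 to 0.123 for the highest number of RBFOX2, and from -0.132 to 0.049 for CPSF3 (5' end, between the hairpins). The cause was not tested. Weak probe sets limit the 3' end, where 61.5% passed the filter, against 88.1% at the 5' end.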
